A study of Homo sapiens with 96 samples.

Results

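The comparison described here is that of MDA-MB-231 cells given the MEK inhibitor U0126 with cells given its vehicle, 4 h after EGF. It rests on the 6 arrays labelled U0126 or DMSO-EGF at 4 h, out of 96 arrays in the study, and these arrays form 3 pairs, one in each of the series that the array titles call 2D03, 2D04 and 3D04. MDA-MB-231 is an established human breast cancer line. Cells at 80% confluence were held in low serum for 24 h. The U0126 group was then pre-treated for 30 min with 10 uM U0126 and stimulated with 10 ng/ml EGF, the ligand of the receptor EGFR, while the DMSO-EGF group received DMSO and the same EGF. The remaining 6 arrays at 4 h came from EGF without vehicle and from an untreated control, 1 array of each in every series, and were used to estimate the spread and as further references. Series 2D03 and 2D04 were grown in 2D culture and series 3D04 in 3D culture, so 3D culture is a single array per group. The labels do not say whether the 2D repeats are separate cultures, so the p-values measure the spread between these arrays, which may be technical.

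MEK is the kinase that phosphorylates and activates ERK, the last step of the cascade from EGFR through RAS and RAF. Active ERK stabilises and induces transcription factors such as FOS, FOSL1, EGR1 and MYC, and it also induces its own antagonists, the dual specificity phosphatases (DUSP) that remove phosphate from ERK and the Sprouty proteins (SPRY) that act upstream of RAF. MDA-MB-231 carries activating mutations in the RAS and RAF genes, so the pathway is active in these cells without added ligand. U0126 binds MEK and keeps it from activating ERK.

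The deposited values are presumed to be log2 signals and were centred for each probe set on a reference that is not stated. A value below 0 is therefore not a low level, and only differences between arrays are read here. Values of several arrays are given in the order 2D03, 2D04 and 3D04. A gene was called when its limma p-value, adjusted over the 11874 genes measured, was below 0.05, and log2 differences are U0126 minus DMSO-EGF unless stated otherwise. The arrays read RNA from whole cultures, so fewer cells expressing a gene and less RNA per cell cannot be told apart.

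U0126 lowered more genes than it raised at 4 h. Of the 11874 genes, 332 (2.8%) were lower and 125 (1.05%) were higher with U0126, 457 (3.85%) in all. The changes downwards were also deeper: 61 genes were at least 2-fold lower and 8 at least 4-fold lower, while 8 were at least 2-fold higher and 2 at least 4-fold higher. The median log2 difference was -0.55 among the lower genes and 0.47 among the higher ones, beside 0.0033 over all genes. All 457 had the same sign in the 3 series, while 18.2% of all genes were lower in every series and 17.6% higher. The calls came from these same arrays, so the shared sign and the separations of arrays given next are no separate evidence. The median difference of the 332 lower genes was -0.56 in 2D03, -0.525 in 2D04 and -0.50 in 3D04. In 115 of the lower genes every U0126 array lay below the other 9 arrays at 4 h, as it did in 1.67% of all genes, and in 34 of the higher genes every U0126 array lay above the other 9, as it did in 0.733% of all genes. Set against the 3 DMSO-EGF arrays alone, the 3 U0126 arrays all lay below them in 3.57% of all genes and all above them in 2.56%.

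The number of calls depended on having all 3 series. It was 81 without series 2D04, 164 without series 3D04, which leaves the 2D arrays alone, and 237 without series 2D03. Of the 57 called genes that are named below, 24 kept their call whichever series was left out, and all 57 kept their sign.

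**Figure D1:**
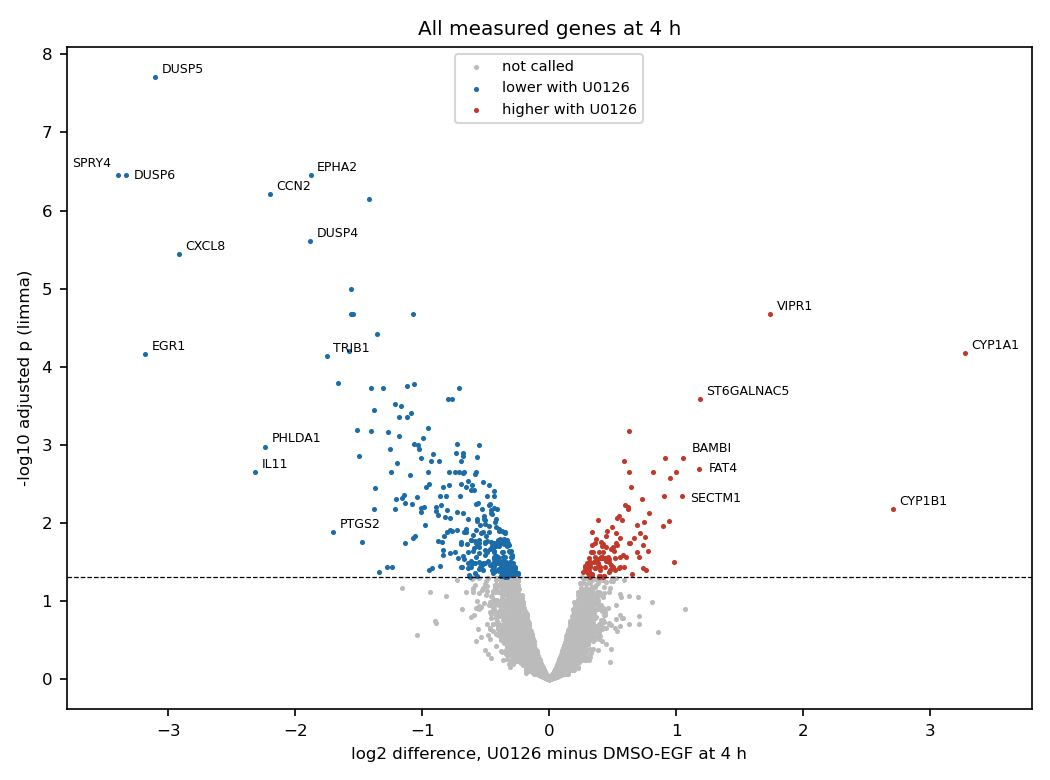
Each point is a gene, with its log2 difference between U0126 and DMSO-EGF at 4 h on the horizontal axis and -log10 of the limma adjusted p on the vertical axis; the dashed line is the threshold of 0.05. The 332 lower genes (blue) reach further from 0 than the 125 higher genes (red), with CYP1A1 and CYP1B1 as the exceptions on the right.

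The other treatments gave no calls at 4 h. With limma, 0 genes (0%) were called between EGF and untreated control, with 470 genes at an unadjusted p below 0.05. Likewise, 0 genes (0%) were called between DMSO-EGF and EGF without vehicle, with 567 at an unadjusted p below 0.05. Against the untreated control, which received neither EGF nor DMSO, U0126 arrays were lower in 324 genes (2.73%) and higher in 150 (1.26%). Against EGF without vehicle they were lower in 413 (3.48%) and higher in 128 (1.08%). Of the 332 genes lower than in DMSO-EGF, 228 were also lower than in the control, and of the 125 higher genes 73 were also higher, both comparisons sharing the U0126 arrays.

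DUSP6, the phosphatase specific for ERK in the cytoplasm, fell 10.1-fold. Its values were -1.58, -1.09 and -0.23 with U0126, against 1.99, 2.23 and 2.88 with DMSO-EGF, a log2 difference of -3.33 (SE 0.136, n = 3 pairs, adjusted p = 3.52e-07). The groups lay far apart in every series. Values of 2.20, 2.11 and 2.69 with EGF alone and of 2.12, 2.04 and 2.71 in untreated cells stood beside those of DMSO-EGF.

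SPRY4, a Sprouty protein, fell 10.5-fold on the probe set used. It read -0.78, -1.09 and 0.29 with U0126, against 2.92, 2.44 and 3.25 with DMSO-EGF, a log2 difference of -3.40 (SE 0.13, adjusted p = 3.52e-07). The highest U0126 array was more than 2 log2 units below the lowest DMSO-EGF array. SPRY4 has several probe sets that disagree: their differences ranged from -3.40 to 0.03, and the probe set with the largest SD over the arrays at other times was read. The mean of its probe sets gave -1.68 (adjusted p = 4.56e-06).

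**Figure D2:**
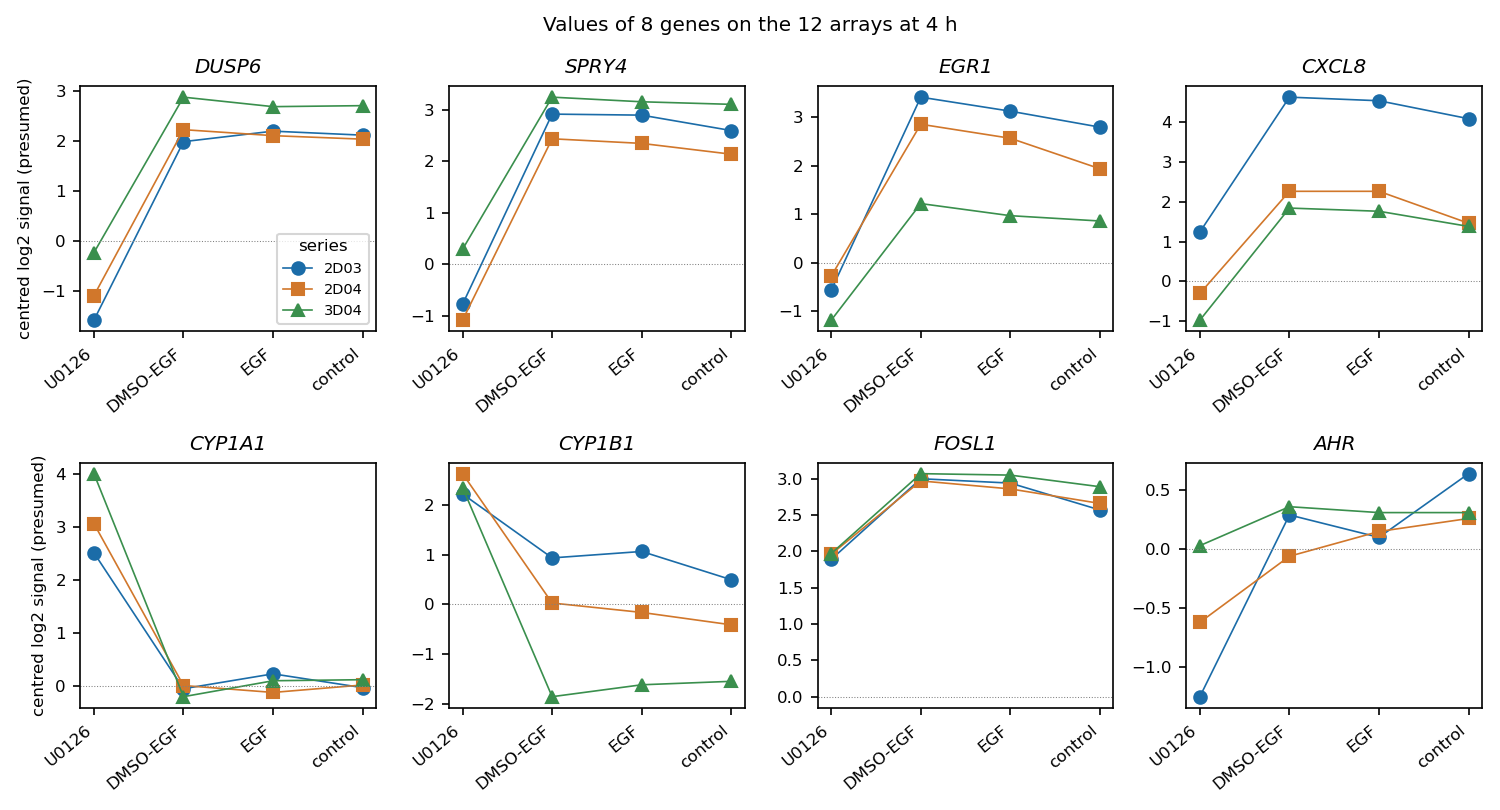
Centred log2 signals (vertical axes, presumed log2) of 8 genes on the 12 arrays at 4 h, by treatment group (horizontal axes), with a line for each series. DUSP6, SPRY4, EGR1, CXCL8 and FOSL1 drop with U0126 in all 3 series and CYP1A1 and CYP1B1 climb, while AHR differs by -1.54 in 2D03, -0.56 in 2D04 and -0.33 in 3D04 and its groups overlap.

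EGR1, a zinc finger transcription factor that is switched on within minutes of ERK activation, fell 9.06-fold. Its values were -0.57, -0.28 and -1.19 with U0126, against 3.42, 2.86 and 1.22 with DMSO-EGF, a log2 difference of -3.18 (SE 0.25, adjusted p = 6.95e-05). The DMSO-EGF value was lowest in 3D culture, where the difference was -2.41, beside -3.99 in 2D03 and -3.14 in 2D04. Transcription of EGR1 is known to be driven through serum response elements, where the serum response factor SRF and ERK-phosphorylated partners such as ELK1 bind together. The core of such an element, the CArG box, occurs 2 times in the 250 bases before the EGR1 start, beginning 105 and 83 bases before it. The sequence below shows that stretch, from the RefSeq promoter table (GRCh38.p14, chr5:138465229-138465478, plus strand), 5′ to 3′ with the CArG boxes in capitals.
EGR1: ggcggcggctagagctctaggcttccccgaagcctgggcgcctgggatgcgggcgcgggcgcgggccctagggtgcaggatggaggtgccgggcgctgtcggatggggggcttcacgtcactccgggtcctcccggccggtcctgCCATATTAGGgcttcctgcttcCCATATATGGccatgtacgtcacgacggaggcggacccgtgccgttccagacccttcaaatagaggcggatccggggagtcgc
A search of both strands for the CArG box found it in 2.82% of the start windows of the lower genes, 1.15% of those of the higher genes and 1.22% of those of all genes measured. These shares cover 426, 174 and 14135 windows of 263, 104 and 9592 genes, since the table lists several starts for some genes and none for others.

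Genes of the list of ERK output and feedback genes fell together, 13 of the 16 measured. Their median log2 difference was -1.47, and it was -1.39 in 2D03, -1.36 in 2D04 and -1.56 in 3D04. DUSP5, a nuclear phosphatase for ERK, fell 8.59-fold, with values of -1.64, -1.84 and -1.05 under U0126 against 1.40, 1.42 and 1.96 under DMSO-EGF (log2 -3.10, SE 0.0839, adjusted p = 1.95e-08). Its spread across series was small beside its change. DUSP4, another nuclear member of the family, fell 3.68-fold, with -1.98, -1.41 and -1.29 against -0.05, 0.57 and 0.44 (log2 -1.88, adjusted p = 2.48e-06). PHLDA1, a pleckstrin homology-like protein induced by growth factors, fell 4.71-fold, though unevenly: its difference was -3.06 in 2D03, -2.12 in 2D04 and -1.53 in 3D04. The receptor tyrosine kinase EPHA2 fell 3.67-fold, by 1.94 in 2D03, 1.94 in 2D04 and 1.75 in 3D04, with 0.47, 0.48 and 0.61 against 2.41, 2.42 and 2.36.

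FOSL1, the AP-1 subunit that accumulates under sustained ERK activity, fell 2.10-fold. Its values were 1.89, 1.96 and 1.97 with U0126, against 3.00, 2.97 and 3.07 with DMSO-EGF (log2 -1.07, SE 0.0712, adjusted p = 2.12e-05). Both groups were tight across the series. CCND1, the cyclin that carries mitogen signals to the cell cycle, fell 1.49-fold, with 0.29, 0.03 and -0.56 under U0126 against 0.52, 0.64 and 0.32 under DMSO-EGF (adjusted p = 0.0183), a call that was lost without series 2D04 or without series 3D04 (log2 between -0.75 and -0.42 with a series left out). Of the other 3 members, SPRY2 at -0.53 and ETV1 at -0.90 (a difference that was -0.345 without series 3D04) were not called, 2 genes named after their values were seen, and the ephrin receptor EPHA4 was higher by 0.49 (adjusted p = 0.0216), a call also lost without 2D04 or without 3D04. With each series left out in turn, 11 to 13 of the 16 genes were lower.

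Among immediate early genes, which are transcribed without new protein synthesis after a stimulus, 13 of 25 were lower and 0 were higher, with a median of -0.36. TRIB1, a pseudokinase that steers protein degradation, fell 3.37-fold, with -1.05, -1.97 and -1.40 under U0126 against 1.02, -0.25 and 0.07 under DMSO-EGF (adjusted p = 7.27e-05). IER2 fell 2.48-fold, with -0.07, -0.64 and -0.93 against 1.44, 0.80 and 0.05 (adjusted p = 0.000189). The MYC transcription factor fell 1.66-fold, by 0.92 in 2D03, 0.69 in 2D04 and 0.59 in 3D04 (adjusted p = 0.00127), and its groups overlapped, with the series at different levels.
FOS fell 1.93-fold (log2 -0.95, SE 0.221, adjusted p = 0.0403), and unevenly. Its values were -0.71, -0.57 and -1.11 with U0126, against 1.15, 0.00 and -0.69 with DMSO-EGF, and the difference was largest in 2D03. The call of MYC was lost without series 2D04 (log2 between -0.81 and -0.64 with a series left out), that of FOS without 2D04 or without 3D04 (between -1.22 and -0.50), and the number of lower genes on the list ran between 4 without 2D04 and 8 without 3D04. Against the untreated control, 6 of the 25 were lower and 2 higher, where the ERK output list had 13 lower and 1 higher.

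The secreted cytokines CXCL8 and IL11 had large decreases outside those lists. CXCL8, the neutrophil chemokine interleukin 8, fell 7.55-fold, with 1.24, -0.30 and -0.97 under U0126 against 4.62, 2.26 and 1.84 under DMSO-EGF (log2 -2.92, SE 0.159, adjusted p = 3.58e-06). The drop was of like size in each series although its level in 2D03 was far above that in the others. IL11, a cytokine of the interleukin 6 family, fell 4.97-fold (log2 -2.31, SE 0.301, adjusted p = 0.00222), with 1.22, -0.19 and -1.20 against 4.21, 2.57 and -0.01. Here the groups overlapped across series, the difference was -1.19 in 3D04, and the call was lost without series 2D04 (log2 between -2.88 and -1.98 with a series left out).
Both genes are known targets of AP-1, the dimer of FOS and JUN family proteins. One match to its consensus TGACTCA stands in each promoter window, 137 bases before the CXCL8 start (chr4:73740319-73740568, plus strand) and 96 bases before the IL11 start (chr19:55370464-55370713, minus strand, where it reads on the other strand). The windows are shown 5′ to 3′ with that site in capitals.
CXCL8: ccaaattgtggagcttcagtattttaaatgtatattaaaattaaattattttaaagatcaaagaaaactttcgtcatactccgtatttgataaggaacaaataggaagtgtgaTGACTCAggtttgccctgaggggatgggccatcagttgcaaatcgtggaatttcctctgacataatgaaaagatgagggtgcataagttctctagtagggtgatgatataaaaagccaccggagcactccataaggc
IL11: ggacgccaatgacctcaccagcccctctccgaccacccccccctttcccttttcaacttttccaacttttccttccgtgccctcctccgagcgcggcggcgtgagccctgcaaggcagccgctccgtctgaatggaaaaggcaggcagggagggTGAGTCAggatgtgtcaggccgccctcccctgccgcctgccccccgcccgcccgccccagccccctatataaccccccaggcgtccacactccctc
On both strands, TGACTCA was found in 4.69% of the windows of the lower genes, 1.72% of those of the higher genes and 3.42% of those of all genes. A match is a description of the sequence and not a bound site.

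Of the 17 inflammatory cytokines and NF-kB targets, CXCL8, IL11, LIF and RELB were lower and 0 were higher, with a median of -0.19. LIF, another cytokine of the interleukin 6 family, fell 2.64-fold with 0.96, 1.07 and 1.13 under U0126 against 2.80, 2.28 and 2.28 under DMSO-EGF (adjusted p = 0.000189). RELB, a subunit of NF-kB, was lower by 0.44 (adjusted p = 0.0431), a call lost without 2D04 or without 3D04, and the other 13 members were not called. PTGS2, the inducible cyclooxygenase that makes prostaglandins, fell 3.25-fold, with 0.93, -0.27 and -0.08 under U0126 against 3.51, 1.62 and 0.55 under DMSO-EGF (adjusted p = 0.0131). Its call was lost without series 2D03 or without 2D04, with log2 differences between -2.24 and -1.26.

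Of the EGFR ligands measured on the growth factor list, HBEGF and EREG were lower, and BTC at -0.14, TGFA and EGF were not called. The ligand genes AREG and EPGN were not measured. HBEGF, an EGFR ligand shed from the cell surface, fell 2.82-fold, with 1.10, 1.21 and -0.17 under U0126 against 2.79, 2.13 and 1.71 under DMSO-EGF (adjusted p = 0.00141). EREG, the ligand epiregulin, fell 2.19-fold, by 1.16 in 2D03, 0.70 in 2D04 and 1.54 in 3D04 (adjusted p = 0.00556). With PDGFA at -0.79 and VEGFC at -0.46, 4 of 11 growth factor genes were lower and 0 higher, with a median of -0.14. The call of EREG was lost without 2D03 or without 3D04 (log2 between -1.35 and -0.93) and that of VEGFC without 2D04 or without 3D04.

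The receptors themselves moved in both directions. Of 24 receptor tyrosine kinases, EPHA2 and MERTK were lower and FGFR3 and EPHA4 higher, with a median of 0.08. FGFR3, a receptor for fibroblast growth factors, rose 1.66-fold, by 1.01 in 2D03, 0.51 in 2D04 and 0.68 in 3D04 (adjusted p = 0.00495), a call lost without 3D04. MERTK, which recognises dying cells, fell 1.61-fold (adjusted p = 0.00741), a call lost without 2D03 or without 3D04.

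Urokinase and its receptor, which activate plasmin at the cell surface and are linked to invasion, fell together. PLAU read 1.57, 0.63 and 1.39 with U0126, against 3.20, 2.14 and 2.97 with DMSO-EGF, a 2.98-fold decrease that was near equal in the 3 series (log2 -1.57, SE 0.121, adjusted p = 6.26e-05). PLAUR, its receptor, fell 2.12-fold, with 1.97, 1.92 and 1.32 against 3.10, 2.79 and 2.58 (adjusted p = 0.000393). MMP1, the interstitial collagenase, was lower by 0.60 (adjusted p = 0.0325), and its call was lost whichever series was left out. The other 14 of the 17 invasion and protease genes were not called, and the median of the list was -0.15.

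CCN2, a matrix-associated growth factor and a standard YAP target, fell 4.59-fold. Its values were 1.50, 1.88 and 0.68 with U0126, against 3.69, 3.95 and 3.02 with DMSO-EGF (log2 -2.20, SE 0.0965, adjusted p = 6.08e-07). Of the 7 YAP target genes, only CCN2 and ANKRD1 were called, and CCN1, the closest relative of CCN2, differed by -0.36 without passing (adjusted p = 0.0726). ANKRD1 was lower by 1.77 in 2D03 and 2.14 in 2D04 but by 0.51 in 3D04, and its call was lost without 2D03 or without 2D04. JAG1, a ligand of Notch receptors, fell 3.16-fold with 1.53, 0.26 and 1.45 against 3.35, 2.20 and 2.67 (adjusted p = 0.000162), and the Notch target HES1 was lower by 0.81 (adjusted p = 0.013), a call lost without 2D03 or without 2D04. The 6 other Notch genes were not called.

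Of the 13 BCL2 family genes measured, 3 were lower and 0 higher, with members from both sides of the apoptotic balance. BCL2L1, which encodes the antiapoptotic BCL-XL, fell 1.88-fold, with -0.29, 0.04 and -0.70 under U0126 against 0.52, 0.71 and 0.56 under DMSO-EGF (adjusted p = 0.00131). BCL2A1, also antiapoptotic, was lower by 0.86 and the proapoptotic PMAIP1 by 0.85, and the other 10 of 13 members were not called (median of the list -0.06). The call of BCL2A1 was lost without 2D03 or without 3D04 and that of PMAIP1 without 3D04. PFKFB3, which drives glycolysis by making fructose 2,6-bisphosphate, fell 2.01-fold, with -1.83, -2.29 and -1.94 against -1.0, -1.18 and -0.86 (adjusted p = 0.00146). The glucose transporter SLC2A1 was higher by 0.64 (adjusted p = 0.00345, lost without 2D04), and the other 13 of 15 hypoxia and glycolysis genes were not called.

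The largest increase among the genes called with all 3 series was that of CYP1A1, a cytochrome P450 that oxidises aromatic hydrocarbons, at 9.65-fold. Its values were 2.51, 3.06 and 4.00 with U0126, against -0.05, 0.01 and -0.20 with DMSO-EGF, a log2 difference of 3.27 (SE 0.255, adjusted p = 6.73e-05). The 9 arrays without U0126 stayed between -0.20 and 0.23. CYP1B1, the related enzyme, rose 6.53-fold (log2 2.71, SE 0.428, adjusted p = 0.00667), with 2.23, 2.64 and 2.36 against 0.94, 0.03 and -1.86. The U0126 arrays were alike and the DMSO-EGF arrays were not, so its difference was 1.29 in 2D03 and 4.22 in 3D04, and its call was lost without series 2D04 (log2 between 1.95 and 3.42 with a series left out).

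Both genes are textbook targets of the aryl hydrocarbon receptor, which enters the nucleus on binding a ligand and attaches to DNA with its partner ARNT. TIPARP, which ADP-ribosylates the receptor and is another of its targets, rose 1.76-fold, with 1.71, 1.07 and 1.01 under U0126 against 1.25, 0.13 and -0.04 under DMSO-EGF (adjusted p = 0.00222, lost without 2D04). These 3 were the called genes of the 9 in the aryl hydrocarbon receptor list, whose median was 0.12. The receptor's recognition core GCGTG begins 57 bases before the CYP1A1 start, shown in capitals in the 250 bases before that start (chr15:74725529-74725778, minus strand).
CYP1A1: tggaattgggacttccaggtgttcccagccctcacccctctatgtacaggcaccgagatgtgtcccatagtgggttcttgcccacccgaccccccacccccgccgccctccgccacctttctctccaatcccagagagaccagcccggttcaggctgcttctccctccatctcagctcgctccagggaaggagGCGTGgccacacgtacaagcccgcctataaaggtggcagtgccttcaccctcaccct
This short core is common: on both strands it was found in 43% of the windows of the lower genes, 40.8% of those of the higher genes and 39.8% of those of all genes. Here too a match describes the sequence and is not a bound site.

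AHR, the gene of the receptor itself, did not pass the test. Its values were -1.25, -0.62 and 0.03 with U0126, against 0.29, -0.06 and 0.36 with DMSO-EGF, a log2 difference of -0.81 (SE 0.227, adjusted p = 0.0856). The difference was -1.54 in 2D03, -0.56 in 2D04 and -0.33 in 3D04, so the sign was shared and the size was not, and the groups overlapped. AHR was called in 3 of the 18 settings tried: against the untreated control (log2 -1.02, adjusted p = 0.033), against the mean of EGF and DMSO-EGF (log2 -0.805, adjusted p = 0.0357) and in a joint fit of the 84 arrays after 0 h (adjusted p = 8.36e-05). DUSP6, SPRY4 and EGR1 were called in all 18.

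Of the 7 genes measured on the list of ID proteins and inhibitory SMADs, BAMBI and ID4 were higher and 0 were lower. BAMBI, a decoy receptor for the TGF-beta family, rose 2.08-fold, with -0.65, -1.74 and -1.46 under U0126 against -1.68, -2.88 and -2.45 under DMSO-EGF (adjusted p = 0.00147). ID4, which blocks helix-loop-helix transcription factors, rose 2.00-fold, with 0.59, 1.62 and 2.93 against -0.40, 0.38 and 2.16 (adjusted p = 0.00222). In both genes the difference was even and the overlap of the groups came from the level of the series. The other 5 of the 7 members of the list were not called. The median of the list was 0.47 and its lowest member differed by -0.41. ID2 had a difference of 1.07 that came from 2.37 in 3D04 beside -0.13 in 2D03. The calls of BAMBI and ID4 were lost without series 2D04, with log2 differences of at least 1.01 and 0.88 in the 3 fits with a series left out.

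VIPR1, a receptor for vasoactive intestinal peptide, rose 3.34-fold with every U0126 array above the other 9. It read 1.53, 1.25 and 0.37 with U0126, against -0.28, -0.69 and -1.10 with DMSO-EGF (log2 1.74, SE 0.118, adjusted p = 2.14e-05). ST6GALNAC5, a sialyltransferase, rose 2.27-fold (adjusted p = 0.00026) and FAT4, an atypical cadherin, 2.26-fold (adjusted p = 0.00207). FZD2, a Wnt receptor, rose 1.93-fold, with 0.92, 0.67 and 1.08 against -0.22, -0.04 and 0.09 (adjusted p = 0.00266). SECTM1, PLPP3, PIK3R3 and ALPP completed the 12 highest genes, at log2 differences of 1.04, 0.94, 0.91 and 0.98, where the ALPP probe sets could also read its near-identical relatives in the alkaline phosphatase family. Among these, ST6GALNAC5, PIK3R3 and VIPR1 kept their call whichever series was left out, while FAT4 and PLPP3 lost it without 2D04, SECTM1 and ALPP without 2D04 or without 3D04, and FZD2 without 2D03.

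**Figure D3:**
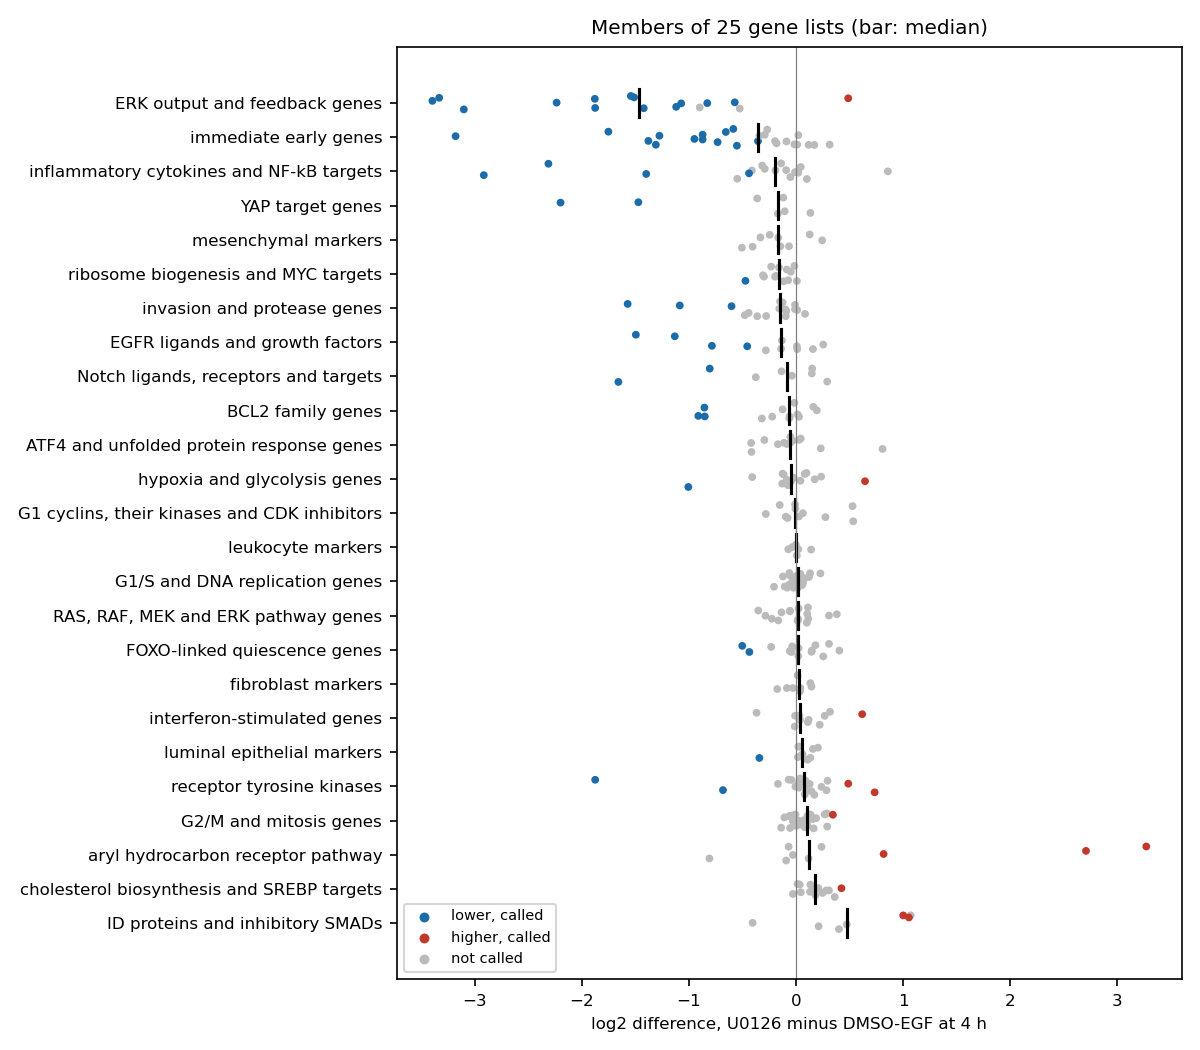
Log2 differences between U0126 and DMSO-EGF at 4 h (horizontal axis) of the measured members of 25 gene lists (rows), blue where called lower, red where called higher and grey where not called; the black bar is the median of the list. The median of the ERK output and feedback genes is at -1.47, while that of the G1/S list, with 28 grey points, is at 0.02.

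The components of the cascade were not among the called genes. Of 16 RAS, RAF, MEK and ERK pathway genes, 0 were lower and 0 higher by limma, their median was 0.02, and their differences ran from -0.35 to 0.38. With 3.85% of all genes called, a list of this size would hold few calls in any case. MAP2K1, which encodes MEK1, differed by -0.23 (adjusted p = 0.143), and MAPK3, which encodes ERK1, by 0.38 (adjusted p = 0.127).

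The cell cycle lists held almost no calls at 4 h, when 3.85% of all genes were called. Lists of this size would hold few calls at that share, so the low counts are not particular to cell cycle genes. Of 28 G1/S and DNA replication genes, 0 were called in either direction, with a median of 0.02 and a range from -0.21 to 0.23. Among 28 G2/M and mitosis genes, the kinesin gene KIF20A was the single call, higher by 0.34 (adjusted p = 0.0236), and this call was lost whichever series was left out. CCND1, the G1 cyclin counted above among the ERK output genes, was lower, and 0 of the 11 genes in the list of other G1 cyclins, their kinases and CDK inhibitors were called. CDKN1B, the inhibitor p27, came nearest, with 0.45, 0.84 and 1.27 under U0126 against -0.04, 0.35 and 0.67 under DMSO-EGF (log2 0.53, adjusted p = 0.0514).

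Other lists held 0 to 2 called genes, beside 3.85% of all genes called at 4 h. IRS2 and BTG1 were lower among 14 FOXO-linked quiescence genes, NOP16 among 13 ribosome biogenesis and MYC targets, and KRT18 among 10 luminal epithelial markers. The sterol sensor INSIG1 was higher among 14 cholesterol biosynthesis and SREBP targets, and the interferon factor IRF1 among 13 interferon-stimulated genes. The differences of these 6 genes ran from -0.50 for IRS2 to 0.62 for IRF1, and each lost its call without series 2D04 and without series 3D04. IRS2, BTG1, KRT18 and INSIG1 also lost theirs without 2D03. In the lists of 13 ATF4 and unfolded protein response genes, 9 mesenchymal, 6 leukocyte and 8 fibroblast markers, 0 genes were called by limma.

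Since the values are centred, the identity of the line could not be checked from levels. Relative to the unstated reference, the summed values of the 10 luminal epithelial markers lay between -19.50 and -18.00 with U0126 and between -19.35 and -18.61 with DMSO-EGF. Those of the 9 mesenchymal markers lay between 7.89 and 9.47 with U0126 and between 8.92 and 11.33 with DMSO-EGF. For the 6 leukocyte markers the sums were 0.16 to 0.34 against -0.36 to 1.12, and for the 8 fibroblast markers -2.95 to -0.41 against -2.39 to -1.59. The ratio of the 5′ to the 3′ actin probe sets, a sign of RNA quality, lay between -0.04 and 0.20 (log2) on the 12 arrays at 4 h. Over all 96 arrays it lay between -1.26 and 0.31, and the 2 lowest arrays were those of U0126 in series 2D03 at 8 and 12 h.

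Few of these genes were called before 4 h. In a joint fit of the 84 arrays after 0 h, with a mean for each treatment and each series at each time, U0126 arrays were lower in 3 genes at 0.5 h (0.0253%), 20 at 1 h (0.168%), 335 at 4 h (2.82%), 857 at 8 h (7.22%), 1462 at 12 h (12.3%), 1527 at 24 h (12.9%) and 1892 at 48 h (15.9%). They were higher in 0 genes at 0.5 h and 0 at 1 h, and then in 117 (0.985%) at 4 h, 615 (5.18%) at 8 h, 771 (6.49%) at 12 h, 1638 (13.8%) at 24 h and 2044 (17.2%) at 48 h. Those lower at 0.5 h were EGR1, IER2 and ZFP36, the last one a protein that destabilises messenger RNA and a gene named after its values were seen. Of the 332 genes lower at 4 h, 17 were already called at 1 h, and of the 125 higher genes 0 were. Over those 332 genes the median difference was -0.06 at 0.5 h, -0.08 at 1 h, -0.55 at 4 h, -0.53 at 8 h, -0.54 at 12 h, -0.52 at 24 h and -0.55 at 48 h, where the value at 4 h chose the genes.

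**Figure D4:**
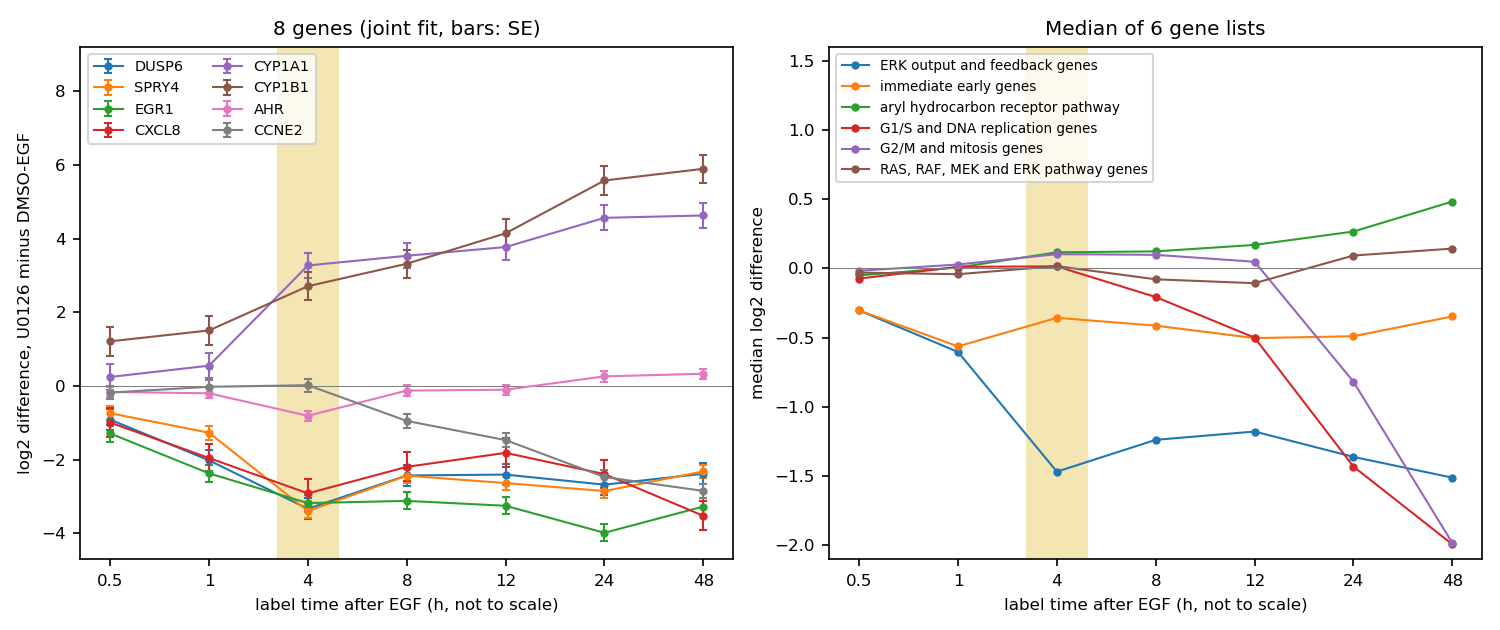
U0126 minus DMSO-EGF by label time (horizontal axes, not to scale) in the joint fit, as log2 differences with SE for 8 genes (left) and as medians of 6 gene lists (right), with 4 h shaded. DUSP6 and SPRY4 are lowest at 4 h, CYP1B1 climbs to 5.89 at 48 h, and AHR is lower at 4 h and back near 0 at 8 h. The median of the G1/S list is -0.21 at 8 h and -0.50 at 12 h. That of the G2/M list is 0.05 at 12 h and -0.82 at 24 h.

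A direct test of the effect at 4 h minus its mean at 0.5 and 1 h called 119 genes (1%), 94 lower (0.792%) and 25 higher (0.211%). Negative feedback genes led the decreases. SPRY4 differed by -0.74 at 0.5 h, -1.27 at 1 h and -3.40 at 4 h, a contrast of -2.39 (SE 0.229, adjusted p = 3.77e-10). DUSP6 differed by -0.91, -2.02 and -3.33 at the same times, DUSP5 by -0.63, -1.26 and -3.10, DUSP4 by -0.22, -0.43 and -1.88, and CCN2 by -0.47, -0.89 and -2.20. EGR1 differed by -1.29, -2.37 and -3.18 at these times. Among the increases, CYP1A1 differed by 0.24, 0.55 and 3.27, a contrast of 2.87 (SE 0.417, adjusted p = 8.45e-06), VIPR1 by -0.19, -0.08 and 1.74, FAT4 by -0.14, -0.28 and 1.18, and ST6GALNAC5 by 0.07, 0.00 and 1.18. RHOB, a small GTPase, changed sign: it differed by -0.48 at 0.5 h, -1.30 at 1 h and 0.48 at 4 h (contrast 1.365, SE 0.361, adjusted p = 0.0464). The number of calls was 24 without series 2D04, where DUSP6, VIPR1 and RHOB lost theirs, and DUSP6, CCN2 and RHOB lost theirs without 2D03. The contrast of DUSP6 lay between -2.69 and -1.45, that of RHOB between 0.93 and 1.82 in the fits with a series left out.

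Few genes passed when the effect at 4 h was set against its mean at 8 and 12 h. That test called 78 genes (0.657%), 38 lower (0.32%) and 40 higher (0.337%), and 6 of them were also among the 457 called at 4 h, which is 7.69% of the 78 and 1.31% of the 457. AHR was lower at 4 h than later: it differed by -0.16 at 0.5 h, -0.20 at 1 h, -0.81 at 4 h, -0.13 at 8 h, -0.10 at 12 h, 0.26 at 24 h and 0.33 at 48 h, a contrast of 4 h with 8 and 12 h of -0.695 (SE 0.173, adjusted p = 0.0437). The contrast of AHR was -0.34 without series 2D03, -0.86 without 2D04 and -0.68 without the U0126 arrays of 2D03 at 8 and 12 h, and its call was lost each time. The difference of CYP1A1 was 3.53 at 8 h, 3.77 at 12 h, 4.56 at 24 h and 4.63 at 48 h. SPRED2, a Sprouty-related inhibitor of RAF activation, was also lower at 4 h (-1.42) than at 8 h (-0.83) and 12 h (-0.68), a contrast of -0.67 (SE 0.0992, adjusted p = 0.00022). The size of the SPRED2 contrast depended on the probe set, and the mean of its probe sets gave a smaller one (see the closing section). AHR and SPRED2 stand outside the 5 lowest genes of this contrast, AHR as one of the genes followed throughout and SPRED2 as a gene named after its value was seen.

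The 5 lowest genes of that contrast differed more in the positive direction at 8 and 12 h than at 4 h. ZBTB20 differed by -0.08 at 4 h, 1.09 at 8 h and 0.97 at 12 h, and SSBP2 by 0.63, 1.66 and 1.51, with DAAM1, PCLO and SERPINI1 at contrasts of -1.03, -0.95 and -0.92. The 5 highest differed more in the negative direction at 8 and 12 h. CCNE2, the cyclin E2 that drives entry into S phase, differed by 0.02 at 4 h, -0.95 at 8 h and -1.47 at 12 h, a contrast of 1.23 (SE 0.222, adjusted p = 0.00196). PRIM2, a subunit of DNA primase, differed by 0.09, -0.74 and -0.95, and ITGA6, a laminin-binding integrin, by -0.16, -0.95 and -1.31, with COL13A1 and SLC43A3 at contrasts of 0.97 and 0.96. Of these 10 genes, ITGA6 kept its call whichever series was left out, and ZBTB20, SSBP2, PCLO and PRIM2 lost theirs each time. CCNE2 and DAAM1 lost theirs without 2D03, and COL13A1, SERPINI1 and SLC43A3 without 2D03 or without 2D04. The contrast nearest 0 in those fits was -0.4475 for DAAM1, -0.4525 for SSBP2 and 0.4375 for SLC43A3. The count of calls was 3 without series 2D03, 12 without 2D04 and 90 without 3D04. It was 49 without the U0126 arrays of 2D03 at 8 and 12 h that had the low actin ratio, and the part of RNA quality in these differences was not tested.

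Cell cycle genes led the decreases between 4 and 24 h. The effect at 24 h minus that at 4 h called 1013 genes (8.53%), 545 lower (4.59%) and 468 higher (3.94%). Of the 28 G1/S and DNA replication genes 25 were lower at 24 h than at 4 h, with a median contrast of -1.43, and of the 28 G2/M and mitosis genes 13 were, with a median of -0.88, beside 0.02 over all genes. In the joint fit, the number of called G1/S genes was 0 at 4 h, 4 at 8 h, 18 at 12 h and 25 at 24 h, while that of G2/M genes was 0 through 12 h and 24 at 24 h, all of them lower. The counts at 8 and 12 h include the U0126 arrays of 2D03 with the low actin ratio and were not refitted without them. MCM10, a DNA replication gene, differed by -2.87 at 24 h, against -0.21 at 4 h (contrast -2.66, SE 0.336, adjusted p = 1.64e-07). DTL, CCNE2, GINS2 and EXO1, all genes of S phase, differed by -2.45, -2.47, -2.36 and -2.20 at 24 h, against 0.07, 0.02, 0.07 and 0.12 at 4 h. Leaving out a series gave 280 calls without 2D04, 414 without 3D04 and 1193 without 2D03, and these 5 genes kept theirs each time.

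The increases that grew after 4 h began with CYP1B1, which differed by 5.58 at 24 h, against 2.71 at 4 h (contrast 2.87, SE 0.545, adjusted p = 0.000259). AQP3, a water and glycerol channel, differed by 2.42 at 24 h, against 0.01 at 4 h (contrast 2.41, adjusted p = 3.5e-08). CLIC3, an intracellular chloride channel protein, differed by 2.50 at 24 h, against 0.18 at 4 h, and AKR1C2, an aldo-keto reductase whose probe sets could also read its close relatives, by 2.12 against 0.25. ALPP differed by 2.86 at 24 h, against 0.98 at 4 h. The calls of CYP1B1, CLIC3 and AKR1C2 were lost without series 2D04, with contrasts of 2.47 or more, 2.25 or more and 1.66 or more in the fits with a series left out.

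The last question was whether the 3D series responded by another amount than the 2D series at 4 h. A term for U0126 in 3D, which sets U0126 against the other 3 groups of its series, called 11 genes (0.0926%), 6 lower (0.0505%) and 5 higher (0.0421%) in 3D than in 2D. G0S2, an inhibitor of fat breakdown, differed most: it read 0.64 with U0126, against 3.16 with DMSO-EGF, in 3D04, and 2.83 and 2.93 against 3.32 and 3.04 in 2D03 and 2D04 (3D minus 2D -2.41, SE 0.223, adjusted p = 0.0116). CSF1, the macrophage growth factor, was 2.29 higher with U0126 in 3D04, beside 0.28 in 2D03 and 0.00 in 2D04 (3D minus 2D 1.87, SE 0.209, adjusted p = 0.0196). Later arrays, which had no part in that test, were read for these genes alone, the lowest and the highest of the term. Later values of the other named genes are not given here. G0S2 and CSF1 showed a like gap at 8 and 12 h and a smaller one at 24 h, which was not tested. All 3D arrays are of series 3D04, so 3D culture and that series cannot be told apart. The U0126 arrays of 2D03 at 8 and 12 h are those with the low actin ratio. G0S2 differed by -1.96 at 8 h and -2.05 at 12 h in 3D04, beside 0.08 and -0.04 in 2D03 and 0.05 and -0.54 in 2D04. CSF1 differed by 2.37 and 2.23 in 3D04, beside 0.13 and -0.21 in 2D03 and -0.26 and 0.44 in 2D04. At 24 h G0S2 differed by -2.06 in 3D04, beside -1.22 in 2D03 and -1.70 in 2D04, and CSF1 by 1.51, beside 0.53 and 0.60.

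**Figure D5:**
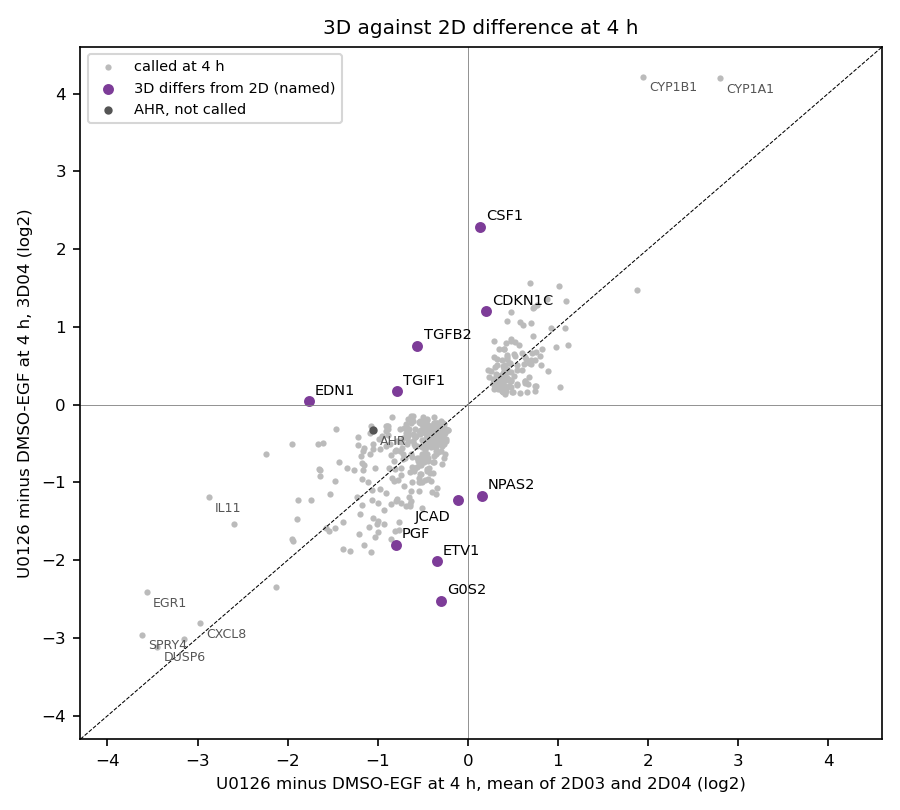
Log2 difference between U0126 and DMSO-EGF at 4 h in series 3D04 (vertical axis) against the mean of 2D03 and 2D04 (horizontal axis) for the 457 called genes (grey), the 10 named genes whose 3D and 2D effects differed (purple) and AHR (dark); the dashed line marks equal differences. G0S2 lies at -2.52 in 3D and CSF1 at 2.29, both with 2D means between -0.30 and 0.14, while DUSP6 lies at -3.11 in 3D against a 2D mean of -3.445 and CYP1A1 at 4.2 against 2.805.

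EDN1, the vasoconstrictor peptide endothelin 1, differed by 0.05 in 3D04, and by -2.03 in 2D03 and -1.50 in 2D04 (3D minus 2D 1.61, SE 0.198, adjusted p = 0.0237). TGFB2, a TGF-beta ligand, had opposite signs, at 0.76 in 3D04 and -0.58 and -0.54 in 2D03 and 2D04. TGIF1, a repressor of TGF-beta transcription, differed by 0.17 in 3D04 and by -0.81 and -0.76 in 2D, and the CDK inhibitor gene CDKN1C by 1.20 in 3D04 and by 0.10 and 0.30 in 2D. The ETS factor ETV1 differed by -2.01 in 3D04, the clock gene NPAS2 by -1.17, the angiogenic factor PGF by -1.80 and JCAD by -1.23, where the 2D series lay between -0.86 and 0.27. PGF was the single gene called both in this test and between U0126 and DMSO-EGF at 4 h.
This term has a single 3D array with U0126 behind it. It called 4 genes without series 2D03, among them G0S2 and EDN1, and 0 without series 2D04, where 1387 genes had an unadjusted p below 0.05. DUSP6, SPRY4, EGR1 and AHR did not pass this test: the 3D minus 2D value was 0.46 for DUSP6 (adjusted p = 0.607), 0.61 for SPRY4 (0.17), 1.00 for EGR1 (0.399) and 0.87 for AHR (0.469). CYP1A1 at 1.22 (adjusted p = 0.136) and CYP1B1 at 1.93 (adjusted p = 0.228) did not pass either.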

How the data were processed

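The study profiled MDA-MB-231 cells on 96 expression arrays, of which the 6 arrays of U0126 and DMSO-EGF at 4 h are compared here. The deposited values are presumed to be log2 signals per probe set, since RMA is named in the submitters' processing notes; the log base and the centring are not stated in the sources used here. The medians of the arrays (-0.06 to 0.03) and the range of the values (-5 to 5.7) show a centring of each probe set, which removes its level. Folds were computed as powers of 2 on that assumption. Precision is set by how many arrays there are.

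The table has 22930 probe sets, 524 of them array controls. The platform annotation gave 1 human gene symbol for 19290 and several for 125, which were left out along with 125 whose gene ID was not in the human gene table and 2866 not listed. A gene with several probe sets, as 4449 of the 11874 genes have, was read from the probe set with the largest SD over the 84 arrays at other times. The arrays at 4 h had no part in that choice, but the contrasts between times also use arrays that did.

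Tests used limma 3.58.1 (R 4.3.3), with lmFit and then eBayes, no trend of variance on level, p-values adjusted over all genes by Benjamini and Hochberg's method, and a threshold of 0.05. The fit of the 12 arrays at 4 h had terms for treatment and series (6 residual degrees of freedom), and a further term gave the difference of U0126 in 3D (5). Contrasts between times came from the 84 arrays after 0 h, with treatment and series within each time (42). These contrasts share the arrays at 4 h with the main comparison. Series was a block in these fits, and arrays of a series deviated together: at 4 h the difference between 2D03 and 2D04 correlated across genes between treatments at 0.63 to 0.74, over 6 pairs of treatments. Arrays with 05h in their label were taken to be from 0.5 h. The code was tested on simulated data, and the alternatives tried in normalization, probe set rule, block and arrays are given in the closing section. No pair of arrays was identical.

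Named genes were the 12 lowest and 12 highest called genes at 4 h with one sign in all series, in each list up to 4 members, by smallest adjusted p, 10 fixed genes (DUSP6, SPRY4, EGR1, AHR, FOS, FOSL1, CCND1, MYC, CYP1A1 and CYP1B1), and the 5 lowest and 5 highest of each other contrast. The comparison, the 25 gene lists (352 of 397 entries measured) and the tests were chosen with earlier results of these data known. Promoter windows are the 250 bases before each start in the RefSeq table for GRCh38.p14.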

Additional observations from a re-analysis of the deposited data

Results flagged for a closer look

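The effects below passed a limma test of the difference itself, between cultures or between times, and are given as log2 contrasts. Between 3D and 2D culture at 4 h, the U0126 effect was lower in 3D for G0S2 (-2.41), ETV1 (-1.67), NPAS2 (-1.32), PGF (-1.12) and JCAD (-1.09), and higher in 3D for CSF1 (1.87), EDN1 (1.61), TGFB2 (1.23), CDKN1C (1.15) and TGIF1 (0.98). Between 4 h and the mean of 8 and 12 h, it was lower at 4 h for ZBTB20 (-1.11), DAAM1 (-1.03), SSBP2 (-0.96), PCLO (-0.95), SERPINI1 (-0.92), AHR (-0.695) and SPRED2 (-0.67), and higher at 4 h for CCNE2 (1.23), ITGA6 (0.97), COL13A1 (0.97), SLC43A3 (0.96) and PRIM2 (0.93). Between 4 h and the mean of 0.5 and 1 h, it was lower at 4 h for SPRY4 (-2.39), DUSP5 (-2.16), DUSP6 (-1.87), DUSP4 (-1.55) and CCN2 (-1.52), and higher for CYP1A1 (2.87), VIPR1 (1.875), FAT4 (1.39), RHOB (1.365) and ST6GALNAC5 (1.15). Between 24 h and 4 h, it was lower at 24 h for MCM10 (-2.66), DTL (-2.53), CCNE2 (-2.49), GINS2 (-2.44) and EXO1 (-2.33), and higher at 24 h for CYP1B1 (2.87), AQP3 (2.41), CLIC3 (2.32), ALPP (1.88) and AKR1C2 (1.87). The contrasts between times share the arrays at 4 h, and the 3D effect at 4 h comes from 1 array with U0126.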

How the results depend on the processing

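The comparison at 4 h gave 457 calls and 409 to 541 under median centring, quantile normalization, other probe set rules, a variance trend, array weights, a filter on low SD, the joint fit, and EGF or untreated control in place of DMSO-EGF. It gave 97 from the 6 arrays alone and 164 from the 2D arrays alone, a change of arrays in each case. Against the mean of EGF and DMSO-EGF it gave 760, from the same arrays with another reference. With no replicate block, that is without the series as a term but with culture kept, the calls were 71 at 4 h, 0 for 3D minus 2D (278 at an unadjusted p below 0.05), 4 for 4 h minus 8 and 12 h, 31 for 4 h minus 0.5 and 1 h and 132 for 24 h minus 4 h. Leaving out a series gave 81 to 237 calls at 4 h, 0 to 4 for 3D minus 2D, 3 to 90 for 4 h minus 8 and 12 h, 24 to 104 for 4 h minus 0.5 and 1 h and 280 to 1193 for 24 h minus 4 h. The 3D minus 2D term could not be fitted without 3D04. Array weights gave 7 calls for 3D minus 2D and 329 for 4 h minus 0.5 and 1 h, quantile normalization 135 for 4 h minus 8 and 12 h, and leaving out the U0126 arrays of 2D03 at 8 and 12 h 49. The cause of these last 4 changes was not tested. Of the 57 called genes named at 4 h, 22 kept their call with no block, and 30, 37 and 44 without 2D04, 3D04 and 2D03. The one sign that changed was that of F3, which was not called (-0.17, and 0.0827 with quantile normalization); the cause was not tested. With the mean of a gene's probe sets in place of one probe set, the contrast of SPRED2 between 4 h and 8 and 12 h was -0.23 rather than -0.67, and the difference of SPRY4 at 4 h was -1.68 rather than -3.40.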
